A study of Mus musculus with 12 samples.

Results

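The potassium channel genes were taken as the protein-coding genes of the mouse mm9 annotation whose symbol starts with Kcn, 94 of 22202 protein-coding genes on chromosomes 1 to 19 and X. The symbol alone chose them, and no measured value was used. The measurements were ChIP-seq, in which fragments bound by an antibody to a histone mark are sequenced, in C2C12, an established mouse muscle cell line, from a study of chromatin and transcription in myoblasts. The 12 libraries held 3 methylation states of H3K4 (H3K4me1, H3K4me2 and H3K4me3) beside H3K27ac, H3K27me3 and H3K36me3, with 1 library for each mark in myoblasts and 1 in myotubes. The labels give cells of the C3H strain at passages 15 to 18 for both groups and name no genetic change or drug. Myoblasts were near confluence in medium with 10% serum. Myotubes were the multinucleate fibres that these cells form once serum is withdrawn, collected about 5 days later and freed from cells that had not fused by a light trypsin step. All cells came from a single line, libraries were not replicated, and input DNA was not analysed here. Every ratio of myotubes to myoblasts below therefore compares 2 libraries and not the conditions, and the intervals cover counting error only.

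Potassium channels let potassium leave the cell and set its resting potential, and in muscle they shape the action potential, hold the membrane quiet between contractions and take part in the hyperpolarisation that precedes myoblast fusion. The genes fall into voltage-gated pore subunits, silent subunits that act only beside these, calcium- or sodium-activated pores, inward rectifiers, 2-pore background channels and accessory subunits. H3K4me3 and H3K27ac mark active promoters, H3K36me3 is laid down along transcribed genes, H3K4me1 and H3K4me2 mark promoters and enhancers, and H3K27me3 is placed by Polycomb at genes that are held silent.

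A promoter was the 2 kb on each side of the transcription start site (TSS), and a gene body ran from 2 kb downstream of the TSS to the end of the gene. Fold is the number of reads over the number that the mean of the library gives in a window of that length. A mark was carried at a promoter at 3-fold or more, and over a body at 2-fold or more, with a 95% interval above 1 in each case. A mark was gained when the myotube to myoblast ratio, scaled by total reads, was at least 2 with an interval above 1 and the mark was carried in myotubes. It was lost when the ratio was at most 0.5 with an interval below 1 and the mark was carried in myoblasts. Only the window of Kcnab2 held the TSS of another protein-coding gene. 4 of the 94 genes were too short for a body, which left 90.

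The libraries held between 1858771 and 7033100 reads, and the myoblast H3K27ac library was the smallest. In that library 3 reads at a promoter were already 1.03-fold, against 0.273-fold in the myoblast H3K27me3 library, so low H3K27ac values are the least precise. The labels of the cells were checked on 21 marker genes, not all of which are named here. Of the 21, 7 carried H3K4me3 in myoblasts and 14 in myotubes, with 9 gains and 2 losses. H3K4me3 was gained at all 9 myotube markers, such as Acta1 with 1.38-fold in myoblasts and 63.8-fold in myotubes. The myoblast regulators Myod1 and Myf5 carried it in both, with 13.6-fold and 20.3-fold in myoblasts. The white blood cell marker Ptprc and the endothelial markers Pecam1 and Cdh5 lay below 3-fold in both cell types. Among the neuronal markers Tubb3 carried H3K4me3 at 15.9-fold in myoblasts and Neurog2 at 3.23-fold, while Neurod1 and Syp lay at 0.692-fold and 1.15-fold.

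H3K27me3 was carried by 48 of the 94 potassium channel promoters in myoblasts, which is 51.1%, against 10.0% of all protein-coding genes. In myotubes 28 of the 94, or 29.8%, carried it, against 6.95% of all genes. The median potassium channel promoter had 3.05-fold H3K27me3 in myoblasts and 2.23-fold in myotubes, where the median of all genes was 0.820-fold and 0.765-fold. Over gene bodies 42 of 90 channel genes carried it in myoblasts, against 14.1% of all genes with a body, and 43 of 90 in myotubes, against 16.1%. The limit of 3-fold ran through a dense range of values, with Kcnh1 at 3.01-fold just inside it in myoblasts and Kcne1 at 2.92-fold just outside. The surroundings of these genes were also high. In the 200 kb around the TSS, without the central 10 kb, the median level in myoblasts was 1.49 times the library mean at the channel genes and 0.990 times at all genes. Over this local level instead of the library mean 15 of 94 promoters were 3-fold or more in myoblasts, against 4.26% of all genes, and 2 of 94 in myotubes, against 1.92%.

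**Figure D1:**
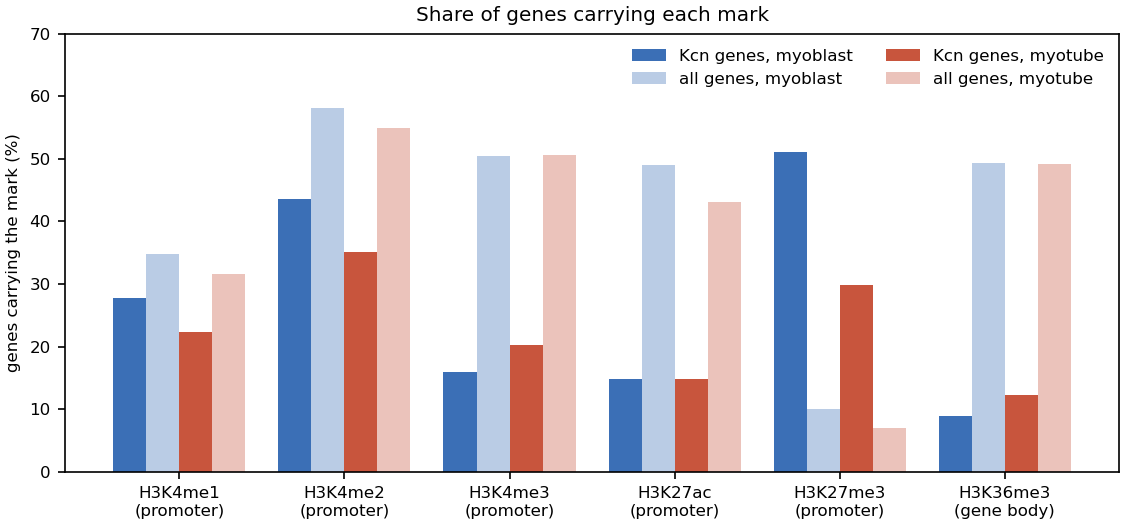
Percentage of genes that carry each of the 6 marks, on the vertical axis, at the promoter or, for H3K36me3, over the gene body. Solid bars are the potassium channel genes (94 promoters, 90 bodies), pale bars all protein-coding genes (22202 promoters, 17921 bodies), with myoblasts in blue and myotubes in red; only for H3K27me3 do the solid bars stand above the pale ones, 51.1% against 10.0% in myoblasts.

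The active marks lay the other way. H3K4me3 was carried by 15 of 94 potassium channel promoters in myoblasts, against 50.4% of all genes, and by 19 in myotubes, against 50.7%. H3K27ac was carried by 14 in myoblasts, against 49.1%, and again by 14 in myotubes, against 43.1%. H3K36me3 was carried over 8 of 90 bodies in myoblasts, against 49.3%, and over 11 in myotubes, against 49.2%. The marks that also sit at enhancers were nearer to the share of all genes. H3K4me2 was carried by 41 promoters in myoblasts, against 58.2%, and by 33 in myotubes, against 55.0%. H3K4me1 was carried by 26 in myoblasts, against 34.8%, and by 21 in myotubes, against 31.6%. 29 promoters carried none of the 5 promoter marks in myoblasts, against 33.7% of all genes, and 40 did so in myotubes, against 37.5%. As many channel genes lack H3K4me3, the shares were also taken among promoters without it. There H3K27me3 was carried by 42 of 79 channel promoters in myoblasts, against 17.6% of all genes without H3K4me3.

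H3K27me3 is often placed at promoters rich in CpG, so the sequence of the 300 bases from 250 upstream to 50 downstream of each TSS was examined. A CpG ratio, observed over expected from the base composition, of at least 0.6 was found at 37 of 94 channel promoters, against 48.6% of all genes. Among the CpG-rich promoters 22 of 37 channel genes carried H3K27me3 in myoblasts, against 8.82% of all such genes. Among the others 26 of 57 carried it, against 11.2%. The median CpG ratio was 0.578 at the 48 carriers and 0.497 at the 46 other channel genes. It was 0.580 over all genes and 0.516 over all genes that carried H3K27me3 in myoblasts. The 29 channel promoters without any of the 5 marks in myoblasts had a median ratio of 0.375.

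The 250 bases upstream of the TSS are given for 5 genes that stand for the different states, in mm9, 5′ to 3′ on the strand of the gene, with CG dinucleotides in capitals. Kcnn3 (chr3:89323836-89324085, plus strand, 10 CG) held H3K4me3 and H3K27me3 together in myoblasts and gained active marks. Kcnh3 (chr15:99055042-99055291, plus strand, 33 CG) and Kcna2 (chr3:106904235-106904484, plus strand, 18 CG) had the highest H3K27me3 levels in myoblasts. Kcnh7 (chr2:63022345-63022594, minus strand, 16 CG) carried no mark in either cell type, and Kcnma1 (chr14:24410924-24411173, minus strand, 4 CG) gained H3K27ac at an internal start.
Kcnn3: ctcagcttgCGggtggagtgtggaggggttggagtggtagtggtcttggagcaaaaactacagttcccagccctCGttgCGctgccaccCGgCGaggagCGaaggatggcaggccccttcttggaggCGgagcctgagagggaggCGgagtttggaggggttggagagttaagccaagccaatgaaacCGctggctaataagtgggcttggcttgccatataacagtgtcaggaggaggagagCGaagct
Kcnh3: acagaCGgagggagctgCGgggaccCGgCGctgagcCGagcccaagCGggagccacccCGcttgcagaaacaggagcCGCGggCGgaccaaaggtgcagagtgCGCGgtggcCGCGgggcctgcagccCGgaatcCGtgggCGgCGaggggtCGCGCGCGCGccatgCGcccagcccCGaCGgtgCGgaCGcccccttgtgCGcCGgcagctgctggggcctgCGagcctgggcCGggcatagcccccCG
Kcna2: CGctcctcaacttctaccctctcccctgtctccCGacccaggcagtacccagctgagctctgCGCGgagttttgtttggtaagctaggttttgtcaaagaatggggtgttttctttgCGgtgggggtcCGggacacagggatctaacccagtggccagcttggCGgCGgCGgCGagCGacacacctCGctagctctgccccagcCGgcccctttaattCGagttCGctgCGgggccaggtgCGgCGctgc
Kcnh7: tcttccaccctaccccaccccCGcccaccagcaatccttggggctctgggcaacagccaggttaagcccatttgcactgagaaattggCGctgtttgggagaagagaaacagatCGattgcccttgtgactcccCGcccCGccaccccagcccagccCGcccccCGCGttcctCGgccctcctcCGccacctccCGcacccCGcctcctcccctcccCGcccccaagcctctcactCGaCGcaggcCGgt
Kcnma1: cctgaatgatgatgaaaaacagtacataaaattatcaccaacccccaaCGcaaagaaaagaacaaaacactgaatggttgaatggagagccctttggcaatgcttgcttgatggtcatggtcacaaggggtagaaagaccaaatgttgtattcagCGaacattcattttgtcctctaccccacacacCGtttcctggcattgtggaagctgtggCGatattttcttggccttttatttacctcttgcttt

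The sequence motif CAGCTG, a form of the E-box that muscle regulators such as MyoD bind, was searched in these 300 bases, where both strands read alike. It was present at 22 of 94 channel promoters, against 15.3% of all genes, with 11 among the 48 carriers of H3K27me3 and 11 among the 46 others. RE1, the site of the neuronal repressor Rest, was searched within 2 kb of the TSS on both strands as TTCAGCACC and GGACAG with 2 bases between them. It was found at 1 of 94 channel genes, Kcnh4, against 0.149% of all genes. Of the 33 genes with it in the genome, 13 carried H3K27me3 in myoblasts, against 10.0% of all genes. Sites that differ from this sequence at any base were not searched. Rest itself carried H3K4me3 in both cell types, with 13.8-fold and 15.7-fold.

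**Figure D2:**
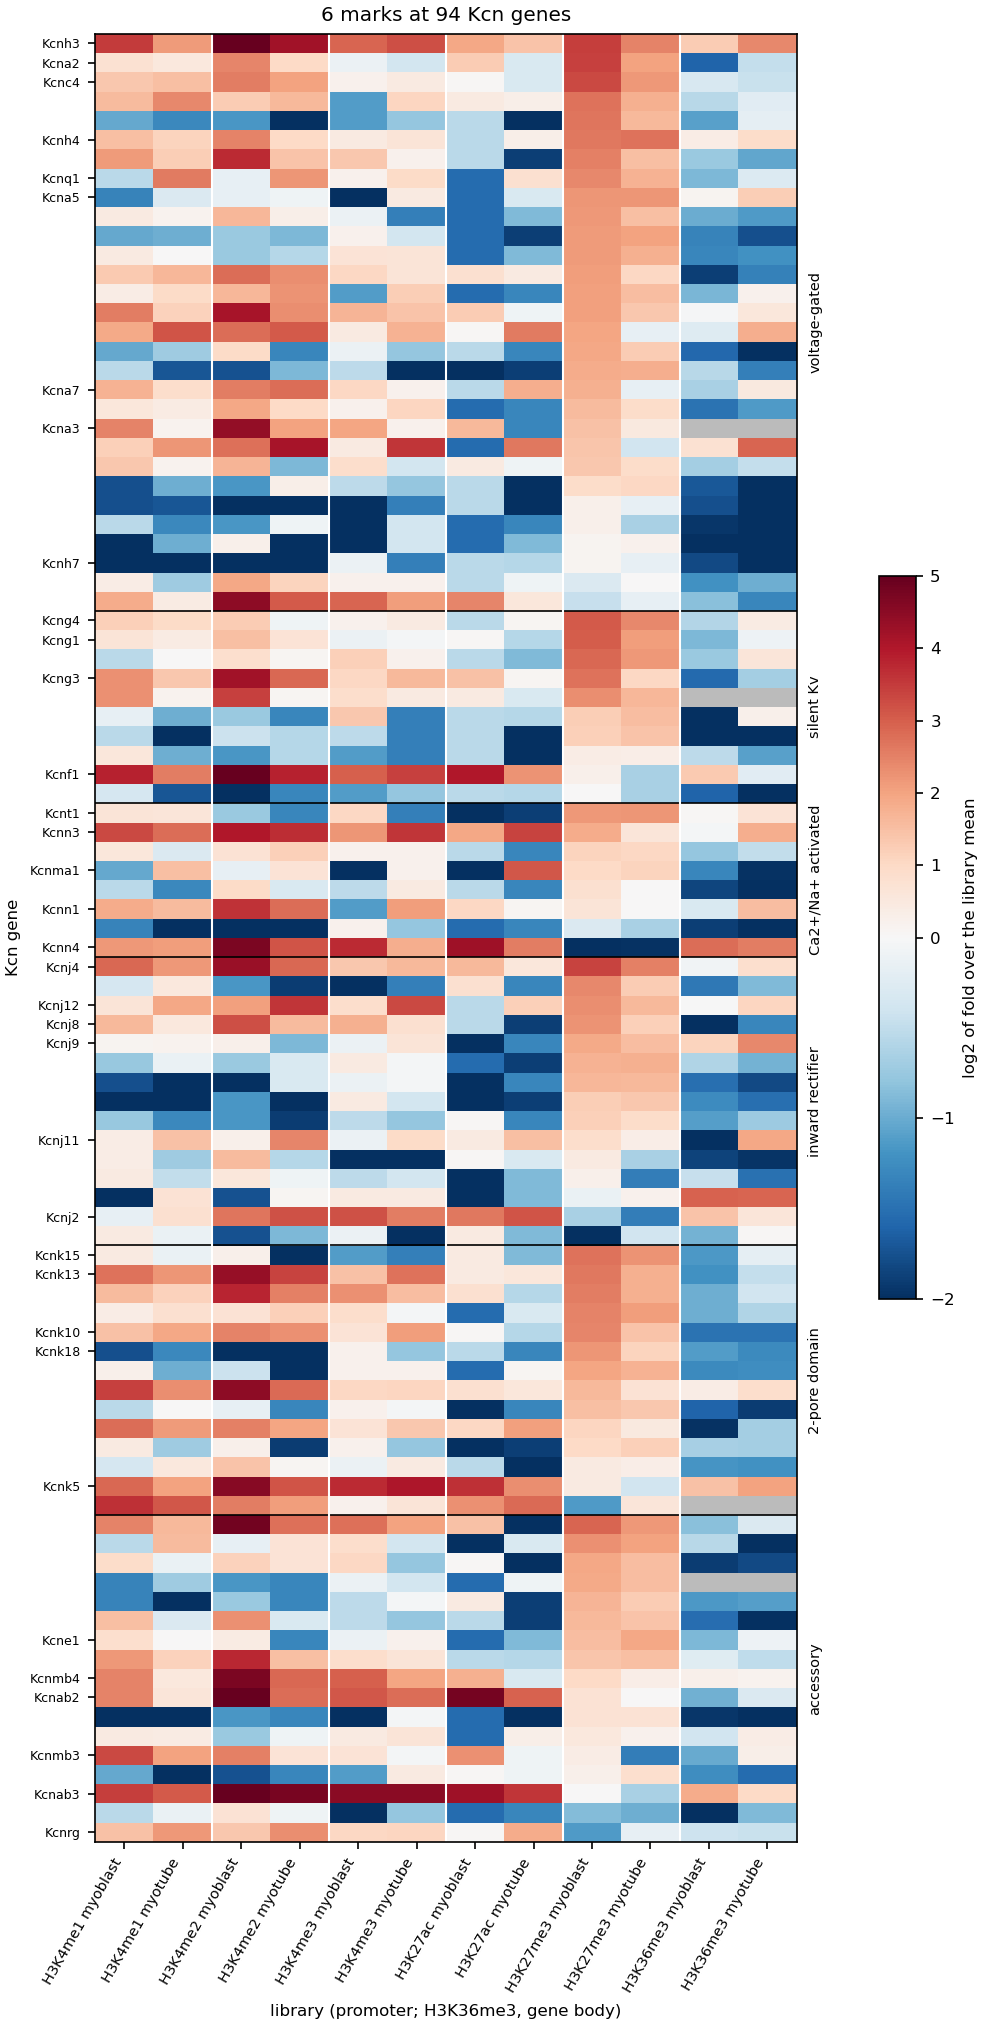
Level of the 6 marks (columns, myoblast and myotube library side by side) at each of the 94 potassium channel genes (rows, grouped by channel class and ordered by myoblast H3K27me3), as log2 of the fold over the library mean; levels beyond an end of the colour scale are drawn at that end, bodies that were too short are grey, and some of the genes described are labelled. The H3K27me3 columns are red in most rows. H3K4me3 is pale in most rows, with a median of 1.15-fold in myoblasts. Strong red in H3K4me3 or H3K27ac is seen in few rows, such as Kcnab3, Kcnk5 and Kcnn4.

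The highest myoblast levels of H3K27me3 were spread over several channel classes. Kcnh3, a voltage-gated pore of the ELK type found mainly in brain, had 122 reads (11.1-fold) in myoblasts and 44 reads (5.61-fold) in myotubes. Kcna2, a delayed rectifier of axons, had 116 reads (10.6-fold) and 32 reads (4.08-fold). Kcnj4, an inward rectifier, had 113 reads (10.3-fold) and 45 reads (5.74-fold). Each of these 3 was lower in the myotube library, with intervals of the ratio below 1, and still carried the mark there. Kcnc4, a fast voltage-gated pore that is present in skeletal muscle, had 109 reads (9.93-fold) and 35 reads (4.46-fold). The silent subunits Kcng4 and Kcng1 followed with 8.29-fold and 8.11-fold in myoblasts, and with 5.35-fold and 4.21-fold in myotubes. Kcnh4 ranked first in myotubes, with 68 reads (6.20-fold) in myoblasts and 51 reads (6.50-fold) in myotubes. Its ratio was 1.05 (95% interval 0.715 to 1.53), and it was one of 4 among the 48 myoblast carriers with a level that was not lower in the myotube library. Over the body of Kcnh4 H3K27ac was gained, with 12 and 107 reads, a ratio of 3.51. H3K4me2 was gained there too, with 41 and 101 reads, a ratio of 2.22 (1.53 to 3.28). At the promoter of Kcnh4 H3K4me2 was lost, with 37 and 15 reads, a ratio of 0.366 (0.187 to 0.683). With the median ratio of promoters that carry it in both libraries set to 1, this loss was not called. The other high levels of H3K27me3 in myotubes were those of the 2-pore channel Kcnk15, at 6.65-fold and 4.72-fold, and of the sodium-activated Kcnt1, at 4.46-fold and 4.59-fold. Kcna5, a delayed rectifier of heart and muscle, lay at 4.56-fold and 4.59-fold.

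By class, H3K27me3 in myoblasts was carried by 20 of 30 voltage-gated pores, 5 of 10 silent subunits, 2 of 8 calcium- or sodium-activated pores, 7 of 15 inward rectifiers, 8 of 14 2-pore channels and 6 of 17 accessory genes. In myotubes these numbers were 11, 4, 1, 4, 5 and 3. Every class thus had fewer carriers in myotubes. The classes were set by gene symbol, so Kcnu1 was counted with the calcium- or sodium-activated pores without regard to what opens it. Some carriers lie next to each other, and 11 pairs of channel genes had start sites within 200 kb. Among these are Kcna5, Kcna1 and Kcna6 on chromosome 6, Kcna3, Kcna2 and Kcna10 on chromosome 3, and Kcnj9 and Kcnj10 on chromosome 1, so their values share a neighbourhood.

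In both cell types 27 of the 94 promoters carried H3K27me3, against 1276 of all 22202 genes. 21 did so in myoblasts alone, with levels between 0.892-fold and 2.93-fold in myotubes, so that 4 of them, Kcnc1, Kcne1l, Kcnj9 and Kcnmb2, lay just under the limit there. Kcne1, an accessory subunit of Kcnq1, passed the limit in myotubes alone. 25 promoters carried none of the 5 promoter marks in either cell type. Within 1 cell type such promoters were about as frequent as among all genes. They were 30.9% in myoblasts, against 33.7% of all genes, and 42.6% in myotubes, against 37.5%. Many of the 25 belong to genes known from brain or smooth muscle. Examples are the A-type pore Kcnd2, the delayed rectifier Kcnb2, the inward rectifiers Kcnj3 and Kcnj6, the 2-pore channels Kcnk2 and Kcnk9, and Kcnmb1. Of these 25, Kcnj6, Kcnk16, Kcns2 and Kcnu1 carried H3K27me3 over the body in both cell types, from 2.03-fold at Kcnu1 to 3.42-fold at Kcns2 in myoblasts.

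H3K27me3 with H3K4me3, the pair of marks called bivalent, was found at 6 channel promoters in myoblasts, against 1.31% of all genes, and at 5 in myotubes, against 0.613%. The 6 were Kcnh2, Kcnh3, Kcnip3, Kcnj8, Kcnk12 and Kcnn3. Kcnh3 and Kcnip3 kept both marks in myotubes, where Kcnj4, Kcnj12 and Kcnk13 joined them. Of the 42 promoters with H3K27me3 and not H3K4me3 in myoblasts, 21 stayed in that state, 15 carried neither mark in myotubes, 3 carried both and 3, Kcng3 and Kcnk10 among them, carried H3K4me3 alone. Of the 9 with H3K4me3 alone 8 stayed so, and Kcna3 was left with neither. Kcnn1 was among the genes that went from neither mark to H3K4me3. Shares of all genes are not given for these transitions. Over all genes carriers of H3K27me3 also fell, from 2231 in myoblasts to 1544 in myotubes. Some states of the channel genes changed because a level crossed the limit, without a called change in H3K4me3. H3K4me3 counted 11 and 16 reads at Kcnj4, a ratio of 1.22 (0.533 to 2.92), and 9 and 16 reads at Kcng3 (0.622 to 3.84). At Kcnh2, which left the bivalent state, it was at 3.23-fold and 2.71-fold. At Kcnj12, Kcnk10, Kcnk13 and Kcnn1 a gain of H3K4me3 was called. H3K27me3 with H3K4me2 was more frequent. It was found at 24 channel promoters in myoblasts, against 4.23% of all genes, and at 9 in myotubes, against 1.34%. Of the 24, 15 lost H3K4me2 in myotubes, where 69.9% of all 939 genes with this pair did. H3K4me2 was lower in the myotube library as a whole, and with the median ratio of promoters that carry it in both libraries set to 1 the loss was called at 7 of the 24, against 36.1% of all genes with the pair.

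H3K27me3 was lost at 13 channel promoters in the myotube library, against 1.92% of all genes, and gained at 0, against 0.167%. The 13 were 27.1% of the 48 carriers, and 19.1% of all carriers lost the mark in the same way. The median myotube to myoblast ratio, with 1 read added to each count, was 0.640 over the 48 carriers and 0.719 over all 2231 carriers, and 44 of the 48 were below 1. These carriers were chosen on their myoblast count. Over all 94 channel genes without such a choice the median ratio was 0.717, and over all 22202 genes it was 0.933. The count of losses rested on the scaling. Promoters with H3K27me3 in both libraries had a median ratio of 0.815 over all genes, and with that median set to 1 the losses fell to 4, Kcna2, Kcna7 and Kcng3 among them, against 0.914% of all genes. With windows of 1 kb on each side 21 members lost the mark, and the share of all genes under that setting is not given.

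Kcna7, a delayed rectifier present in skeletal muscle and heart, had 38 reads of H3K27me3 (3.46-fold) in myoblasts and 7 reads (0.892-fold) in myotubes, a ratio of 0.258 (95% interval 0.0971 to 0.584). Kcng3, a silent subunit, had 73 reads (6.65-fold) and 16 reads (2.04-fold), a ratio of 0.307 (0.167 to 0.532). At both promoters the loss was present under either scaling. The calcium-activated Kcnn3 fell from 3.64-fold to 1.53-fold with a ratio of 0.420 (0.200 to 0.816). The other losses named here had ratios between 0.386, at Kcna2, and 0.498, at the 2-pore channel Kcnk10. They were those of Kcna1, Kcnc4, Kcnj5, Kcnj8 and Kcnk18, beside Kcna2 and Kcnk10. Kcna2 and Kcnc4 still carried the mark in myotubes, at 4.08-fold and 4.46-fold.

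In the mean profile the decrease lay at the start site. Within 2 kb of the TSS the mean fold over the 94 genes was 3.48 in myoblasts and 2.35 in myotubes, while at 5 to 10 kb it was 2.12 and 2.11. The highest bin of 250 bp in myoblasts, centred 625 bases downstream of the TSS, reached 4.70-fold. The lowest bin in myotubes, centred 125 bases downstream, was at 1.24-fold. A dip of this kind was also present over all genes, where the mean within 2 kb was 1.31-fold in myoblasts and 1.10-fold in myotubes and the lowest myotube bin was 0.830-fold. The part of this difference between the libraries in the losses was not tested. Gene bodies did not follow. The 46 carriers with a body had a median ratio of 0.632 at the promoter and 0.979 over the body, and all 1925 such carriers had 0.718 and 0.954. H3K27me3 over the body was lost at 0 channel genes, against 0.374% of all genes, and gained at 0, against 1.27%.

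**Figure D3:**
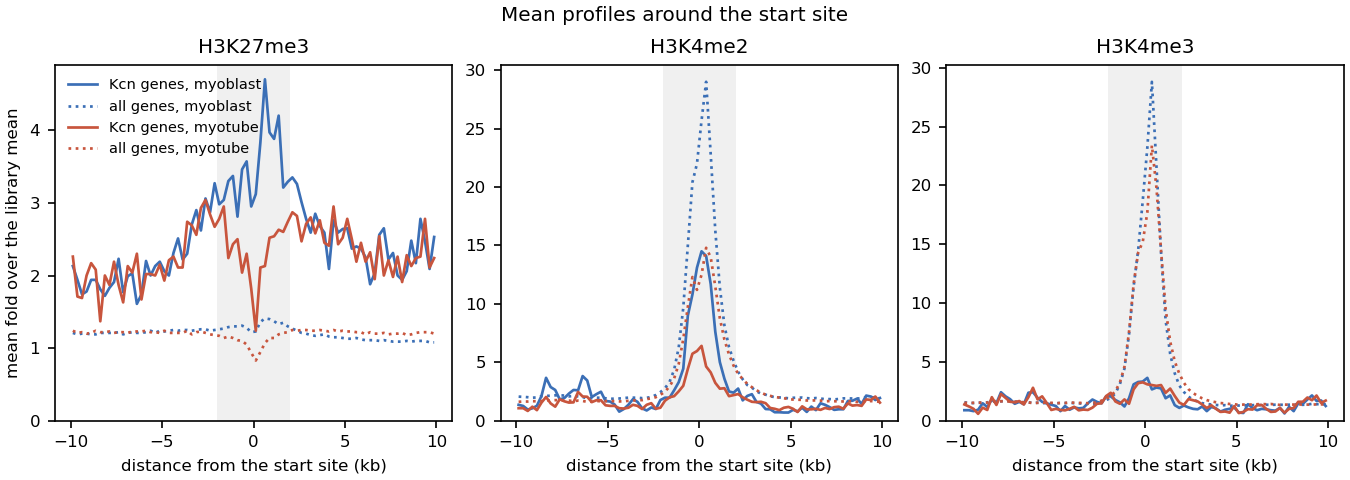
Mean fold over the library mean (vertical axis) against distance from the start site in kb (horizontal axis, bins of 250 bp) for H3K27me3, H3K4me2 and H3K4me3, with potassium channel genes as solid lines, all genes as dotted lines, myoblasts in blue and myotubes in red; the promoter window is shaded. H3K27me3 of the channel genes reaches 4.70-fold beside the start site in myoblasts and falls to 1.24-fold there in myotubes, while the lines meet beyond 5 kb.

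The ratio was also set beside the base composition. Among genes that did not carry H3K27me3 in myoblasts, the median ratio was 0.891 at promoters with a CpG ratio of 0.6 or more and 1.05 at the others, so CpG-rich promoters were lower in the myotube library at genes without the mark too. Among all carriers the medians were 0.622 and 0.786. Among the channel genes they were 0.640 over 22 CpG-rich carriers and 0.605 over 26 others. Carriers with H3K4me2 were lower than those without it, with medians of 0.560 over 24 channel genes and 0.774 over the other 24, and of 0.620 and 0.787 over all genes.

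**Figure D4:**
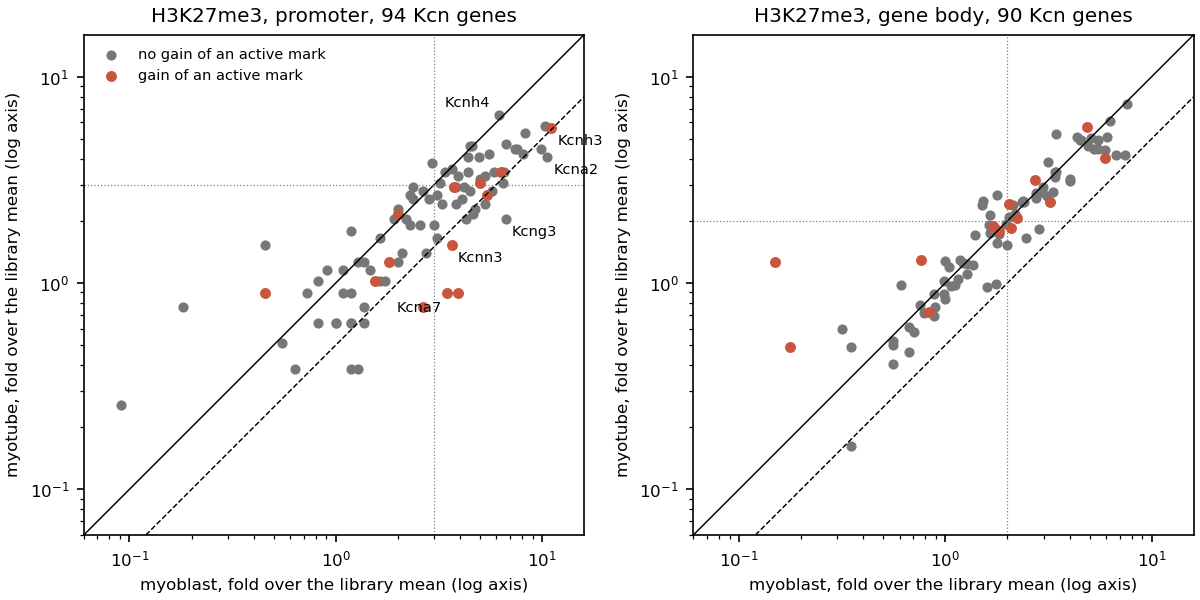
H3K27me3 fold over the library mean in myoblasts (horizontal, log axis) and myotubes (vertical, log axis) at the promoters of 94 and the bodies of 90 potassium channel genes, 1 point per gene, red for the 13 genes with a gain of H3K4me3, H3K27ac or H3K36me3. The solid line marks equal levels, the dashed line a ratio of 0.5 and the dotted lines the limits of 3-fold and 2-fold; most promoters lie below the solid line, while bodies lie along it.

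Active marks were gained at 13 of the 94 channel genes, counting H3K4me3 or H3K27ac at the promoter and H3K36me3 over the body, against 6.59% of all genes. Gains of H3K4me3 or H3K27ac over the body, as at Kcnf1 and Kcnh4, were not part of this count. 5 of the 13, Kcnj12, Kcnn1 and Kcnn3 among these, gained at least 2 of the 3 marks, against 1.91% of all genes. H3K4me3 was gained at 6, against 2.37%, H3K27ac at 6, against 2.94%, and H3K36me3 at 8 of 90, against 4.93%. A larger share of channel genes than of all genes lacked these marks in myoblasts. H3K4me3 was carried there by 15 of 94, against 50.4%, and H3K36me3 by 8 of 90, against 49.3%. Gains among genes without the mark in myoblasts were not counted. In myoblasts 8 of the 13 (61.5%) carried H3K27me3, where 10.5% of all 1463 genes with such a gain did. Without regard to gains the mark was carried by 51.1% of channel genes and 10.0% of all genes. Both shares among genes with a gain thus lay near those of their group. H3K4me2 was carried in myoblasts by 9 of the 13, against 76.6% of all genes with such a gain. The 8 with H3K27me3 had a median H3K27me3 ratio of 0.513, and the 40 other carriers among the channel genes had 0.650. Over all genes these medians were 0.544 and 0.731. Scaling on shared promoters left the 6 gains of H3K4me3 and the 8 of H3K36me3 as they were.

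Kcnn3, the small-conductance calcium-activated channel SK3 that is known from immature muscle, carried H3K4me3, H3K27ac and H3K27me3 in myoblasts. H3K4me3 counted 20 reads (4.61-fold) in myoblasts and 61 reads (11.8-fold) in myotubes, a ratio of 2.57 (1.53 to 4.49). H3K27ac counted 11 reads (3.78-fold) and 76 reads (10.3-fold), a ratio of 2.72 (1.44 to 5.67). H3K36me3 over its body counted 389 reads (0.972-fold) and 855 reads (3.48-fold), a ratio of 3.58 (3.18 to 4.05). All 3 active marks were thus higher in the myotube library while H3K27me3 was lower.

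Kcnj12, an inward rectifier that helps to set the resting potential of muscle, gained H3K4me3, with 8 reads (1.84-fold) in myoblasts and 51 reads (9.89-fold) in myotubes, a ratio of 5.36 (2.53 to 13.1). H3K36me3 over its body counted 127 and 163 reads (0.992-fold and 2.08-fold), a ratio of 2.09 (1.65 to 2.66), which is close to the limit. Unlike Kcnn3 it carried H3K27me3 in both libraries, at 5.01-fold and 3.06-fold. Kcnn1, another small-conductance calcium-activated channel, gained H3K4me3, with 2 and 22 reads (0.461-fold and 4.27-fold), a ratio of 9.25 (2.27 to 81.2). Its H3K36me3 counted 29 and 64 reads (0.814-fold and 2.93-fold), a ratio of 3.60 (2.29 to 5.79).

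**Figure D5:**
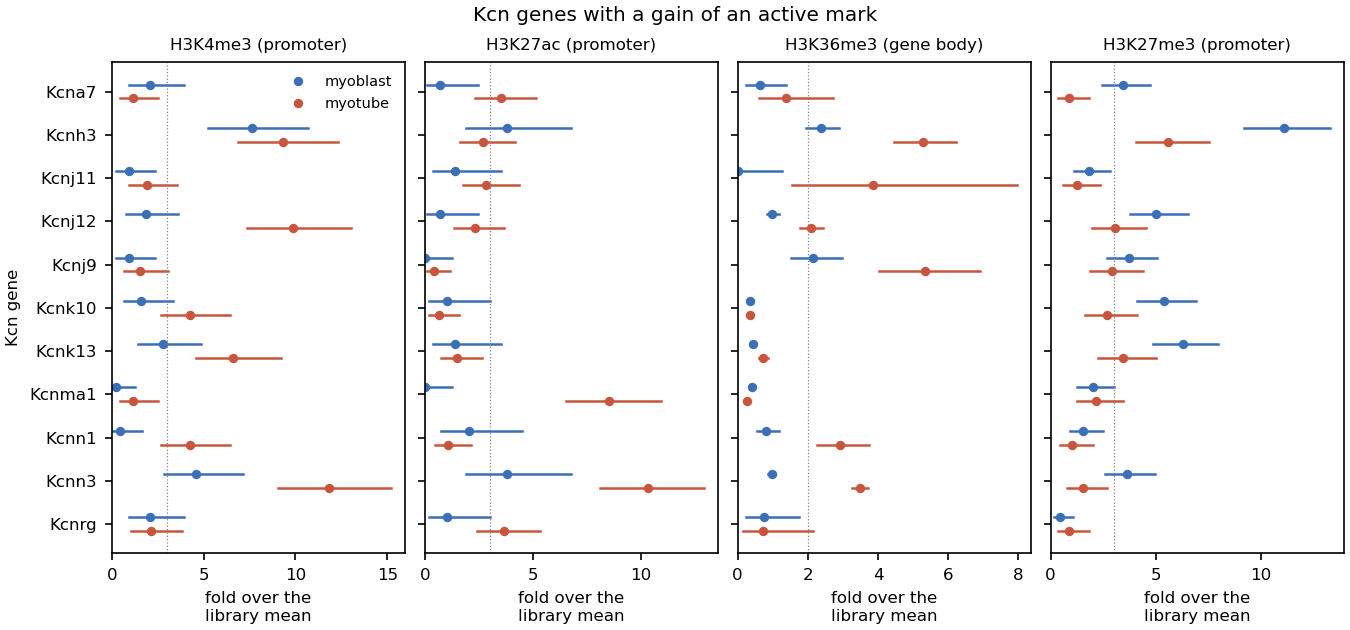
Fold over the library mean (horizontal axis) of H3K4me3, H3K27ac, H3K36me3 and H3K27me3 in myoblasts (blue) and myotubes (red) at 11 of the 13 potassium channel genes with a gain of an active mark; points are the levels, lines their exact Poisson 95% intervals and dotted lines the limits of 3-fold and 2-fold. In myotubes Kcnma1 is at 8.52-fold in the H3K27ac panel, and Kcnn3 is at 11.8-fold, 10.3-fold and 3.48-fold in the first 3 panels.

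The other gains given here touched 1 of the 3 marks each. H3K4me3 was gained at the 2-pore channels Kcnk10, with 7 and 22 reads (1.61-fold and 4.27-fold), and Kcnk13, with 12 and 34 reads (2.77-fold and 6.59-fold). The start used for Kcnk10 lies 3.73 kb from its most upstream annotated start, and at the latter no gain was found. H3K27ac was gained at Kcna7, with 2 and 26 reads (0.688-fold and 3.52-fold), a ratio of 5.11 (1.28 to 44.5). It was gained at Kcnrg, a regulator of channel assembly, with 3 and 27 reads (1.03-fold and 3.65-fold), a ratio of 3.54 (1.09 to 18.2). Kcnma1, the pore of the large-conductance calcium-activated channel, had 0 reads of H3K27ac in myoblasts and 63 reads (8.52-fold) in myotubes, at least 8.26-fold higher against the 3 reads that a count of 0 allows. This start lies 212 kb inside the gene from its most upstream start, where no gain was found, and H3K4me3 at it counted 1 and 6 reads. With windows of 1 kb on each side 3 channel genes gained H3K27ac, Kcna7 and Kcnma1 among them, with no share of all genes given. Scaling on shared promoters gave 9 gains of H3K27ac, against 6.98% of all genes, adding Kcnj2, Kcnk6 and Kcnk7.

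H3K36me3 alone was gained over Kcnh3, Kcnj9 and Kcnj11. Kcnh3 had 105 and 142 reads (2.39-fold and 5.28-fold), a ratio of 2.21 (1.70 to 2.87), beside H3K27me3 that was carried at its promoter and body in both libraries. Kcnj9, an inward rectifier gated by G proteins, had 37 and 56 reads (2.16-fold and 5.33-fold), a ratio of 2.47 (1.60 to 3.85), with no active mark at its promoter. Kcnh3 lies directly beside Mcrs1 and Kcnj9 lies 1.19 kb from Igsf8, and the part of those neighbours in the signal was not tested. Kcnj11, the pore of the ATP-sensitive potassium channel of muscle, had 0 and 7 reads over a short body, at least 3.81-fold higher against 3 reads. At its promoter H3K4me2 was gained, with 8 and 40 reads (1.19-fold and 5.38-fold), while H3K27ac reached 2.84-fold and H3K4me3 1.94-fold in myotubes, under the limit. H3K4me2 was gained at 4 channel genes, against 1.63%, and H3K4me1 at 4, against 3.27%. Under scaling on shared promoters these counts were 7, against 4.92%, and 5, against 4.81%. Kcnq1, a voltage-gated pore of heart and epithelia, gained both without H3K4me3, with 7 and 59 reads of H3K4me1 (0.691-fold and 6.01-fold) and 6 and 34 reads of H3K4me2 (0.894-fold and 4.57-fold). It kept H3K27me3, at 5.28-fold and 3.31-fold.

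Active marks were lost at 8 channel genes, against 22.0% of all genes. H3K27ac was lost at all 8, against 19.8%, H3K4me3 at 3, against 3.68%, and H3K36me3 at 0 of 90, against 3.84%. Few channel genes had these marks to lose. Of the 14 that carried H3K27ac in myoblasts 8 lost it, against 40.3% of all carriers, and of the 15 that carried H3K4me3 3 lost it, against 7.30%. Kcnn4, the intermediate-conductance calcium-activated channel of proliferating cells, had 57 reads of H3K4me3 (13.1-fold) in myoblasts and 18 reads (3.49-fold) in myotubes, a ratio of 0.266 (0.147 to 0.458). Its H3K27ac counted 55 and 44 reads (18.9-fold and 5.95-fold), and its body kept H3K36me3 at 6.98-fold and 5.85-fold. Kcna3, a delayed rectifier best known from lymphocytes, had 17 and 6 reads of H3K4me3 (3.92-fold and 1.16-fold), 142 and 30 reads of H3K4me2, and 9 and 3 reads of H3K27ac. All 3 were lost, and of them H3K4me2 was still carried in myotubes, at 4.03-fold. Kcnmb4, an accessory subunit of the large-conductance channel, had 34 and 20 reads of H3K4me3 (7.84-fold and 3.88-fold), a ratio of 0.495 (0.270 to 0.885). Under scaling on shared promoters this call ended, which left 2 losses of H3K4me3, Kcna3 and Kcnn4, against 2.74% of all genes.

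H3K27ac without H3K4me3 was lost at Kcnab2, Kcnc2, Kcnf1, Kcnk5 and Kcnmb3, with ratios between 0.197, at Kcnmb3, and 0.393, at Kcnk5. The silent subunit Kcnf1 had 16.2-fold H3K27ac in myoblasts and 4.74-fold in myotubes with H3K4me3 at 7.84-fold and 10.7-fold. This loss was limited to the promoter window. Over the body of Kcnf1 H3K27ac was gained, with 2 and 38 reads (1.32-fold and 9.88-fold), a ratio of 7.47 (1.93 to 63.9). H3K4me3 was gained there too, with 5 and 19 reads (2.22-fold and 7.08-fold). Promoters with H3K27ac in both libraries had a median ratio of 0.626 over all genes, and with this set to 1 the losses were 5, against 7.29% of all genes, without Kcnk5, Kcnmb4 and Kcnn4. The median ratio of H3K4me2 was 0.652. H3K4me2 was lost at 25 of the 41 channel genes that carried it in myoblasts, against 32.7% of all carriers. Under shared scaling 13 channel genes lost it, against 5.96% of all genes. H3K4me1 was lost at 11, against 7.88%.

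Both of the highest H3K4me3 levels were at genes without H3K27me3. Kcnab3, a beta subunit of voltage-gated channels, had 99 and 117 reads (22.8-fold and 22.7-fold), and Kcnk5, a 2-pore channel, had 57 and 86 reads (13.1-fold and 16.7-fold). Kcnab3 lies 0.465 kb from Trappc1, whose part in this signal was not tested. Beside them, Kcnj2, the main inward rectifier behind the hyperpolarisation of fusing myoblasts, carried H3K4me3 in both libraries, with 39 and 30 reads (8.99-fold and 5.82-fold). Its H3K27ac counted 18 and 65 reads (6.19-fold and 8.79-fold), a change under 2-fold, and H3K27me3 was at 0.638-fold and 0.382-fold. H3K36me3 over its body was carried in myoblasts alone, with 64 and 22 reads (2.69-fold and 1.51-fold). That ratio of 0.561 (0.329 to 0.922) was not called a loss.

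14 channel genes described in skeletal muscle or its precursors were counted as a list. H3K27me3 was carried by 9 of the 14 in myoblasts and by 3 in myotubes, where 10.0% and 6.95% of all genes and 51.1% and 29.8% of all channel genes carried it. H3K4me3 was carried by 3 and 5 of the 14, against 50.4% and 50.7% of all genes, and H3K27ac by 2 and 6, against 49.1% and 43.1%. H3K36me3 was carried over 1 and 5 of the bodies, against 49.3% and 49.2%. Of the 14, 3 gained H3K4me3, against 2.37% of all genes, 5 gained H3K27ac, against 2.94%, and 5 gained H3K36me3, against 4.93%, and none lost any of these. The gains of H3K27ac included Kcna7, Kcnma1 and Kcnn3. The list was drawn up with earlier results of these data known, so its share of the gains is a description and supports nothing. The members without a gain were less alike. Kcnj8, the vascular ATP-sensitive pore, lost H3K27me3, with 4.74-fold and 2.29-fold, and its H3K4me3 was 3.46-fold and 1.75-fold. Kcnh1, a voltage-gated pore active before fusion, had H3K27me3 at 3.01-fold and 1.91-fold and H3K4me3 at 1.15-fold and 2.13-fold. Kcne3, an accessory subunit, had H3K27me3 at 3.10-fold and 2.68-fold. Kcnq5, a further M-current pore, carried no mark, with 12 and 9 reads of H3K27me3 and 1 and 4 reads of H3K4me3.

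A further list held 20 genes with other symbols, 10 for partners or regulators of these channels and 10 for other channels and pumps of the membrane. H3K4me3 was carried by 6 in myoblasts and by 12 in myotubes, against 50.4% and 50.7% of all genes. It was gained at 5, against 2.37%, and lost at 1, against 3.68%. H3K36me3 was carried over 4 and 10 bodies, against 49.3% and 49.2%, and gained over 7, against 4.93%. H3K27me3 was carried by 7 and 2 promoters, against 10.0% and 6.95%. This list too was chosen with earlier results known. The largest H3K4me3 level gained was that of Cacna1s, the calcium channel of excitation-contraction coupling, with 7 and 130 reads. The sodium channel Scn4a had 1.61-fold and 4.27-fold. Abcc8 and Abcc9, the regulatory subunits that join Kcnj11 and Kcnj8, had no gain, with H3K4me3 at 0.231-fold and 0.194-fold for Abcc8 and at 2.31-fold and 3.49-fold for Abcc9.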

How the data were processed

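The data were 12 ChIP-seq libraries, 6 from myoblasts and 6 from myotubes of the C2C12 line. The authors aligned reads to mm9 with Mosaik and deposited uniquely aligned reads of 34 bp, each a count of 1, with MACS peaks that carry a score. The MACS version and settings, and whether duplicates were removed, are not given in the sources used here. The deposited score was not used. Reads on chromosomes 1 to 19 and X were extended to 150 bp and their midpoints counted. Genes came from GENCODE M1, on the same build as the reads. 96 Kcn entries gave 94 symbols, and the longest entry of a symbol was kept. Each gene has 1 TSS, the annotated start with the most H3K4me3 reads within 1 kb in both cell types, which for 14 members lies over 2 kb from the most upstream start. Intervals are exact Poisson for a level and exact conditional binomial for a ratio, at 95%. With 1 library per group no p-value was computed. Named, apart from some genes that are not reported here, are all genes with a gain or loss of H3K4me3, H3K27ac or H3K36me3, the 6 highest for H3K27me3 and the 3 highest for H3K4me3 per cell type, the H3K27me3 losses and a list of muscle channels. Others are named as examples chosen after their values were seen. The members and lists were chosen with earlier results of these data known.

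Of the myoblast peak lists, the one deposited with H3K27me3 had 0.804-fold H3K27me3 and 36.4-fold H3K27ac reads, and the one deposited with H3K27ac had 6.76-fold and 0.588-fold. These lists appear exchanged, and calls rest on the reads. The steps were tested on simulated data. Alternatives changed the window, the start, the limits, the background, duplicates, extension, depth, scaling and the source of the calls. The scripts ran on Python 3.11.15 with scipy 1.17.1, numpy 2.4.6 and pandas 2.3.3, and figures were drawn with matplotlib 3.10.9.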

Additional observations from a re-analysis of the deposited data

How the results depend on the processing

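Of 168 values computed under alternatives, 138 stayed within 1.5 times the reported count of genes. Carriers of H3K27me3, 48 in myoblasts and 28 in myotubes, became 22 and 4 at a limit of 5-fold and 30 and 10 by overlap with deposited peaks after the exchanged lists were put right. With the lists as deposited they were 10 and 10, and over the surrounding 200 kb, a background added after seeing the data, 15 and 2. Over the median window 45 carried it in myotubes. Carriers of H3K27ac, 14 in each, became 7 in myoblasts at 5-fold and 30 with the lists as deposited, 32 and 36 over the median window, and 7 in myotubes over the surrounding 200 kb. Carriers of H3K4me3 in myotubes, 19, became 10 at 5-fold and 29 over the median window, and bodies with H3K36me3 in myoblasts, 8, became 3 at a limit of 3-fold. Gains of H3K27ac, 6, became 3 with windows of 1 kb on each side, and gains of H3K36me3, 8, became 5 with libraries thinned to the smallest. Losses of H3K27me3, 13, became 21 with windows of 1 kb on each side, 4 under shared scaling and 22 at a ratio limit of 1.5-fold. Under shared scaling gains of H3K4me2 rose from 4 to 7 and its losses fell from 25 to 13. Of these counts, only those under shared scaling, and those of H3K27me3 over the surrounding 200 kb, have a share of all genes above. The others are counts of channel genes alone and do not show how far all genes moved under the same setting. Leaving out Kcnab2, whose window holds another start, or bases of bodies that lie in or near another gene, both also added after seeing the data, kept every count within 1.5 times. The causes were not tested beyond what each setting changes by construction. No result had a replicate, so none could be left out. No paired analysis was possible because each mark had 1 library per cell type. The smallest library, myoblast H3K27ac, had 0 reads at 11 of 94 promoters, so low H3K27ac in myoblasts was not resolved at this depth.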
